A study of Mus musculus with 12 samples.

Results

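Open chromatin was compared between the WT High and the WT Middle cells of mouse embryos at embryonic day 7.5. Both groups came from embryos homozygous for a FoxA2 allele that carries tagRFP, a red fluorescent protein, behind the otherwise unchanged coding sequence, on a mixed C57Bl6/J x CD-1 background. WT High cells were sorted above the tagRFP signal that heterozygous cells reach, and WT Middle cells from above autofluorescence up to that signal. The other 4 groups were WT Negative cells, without tagRFP signal, and the High, Middle and Negative cells of dHx embryos, homozygous for the tagged allele without a stretch of a FoxA2 alpha helix. Each preparation pooled about 10 embryos, not sexed, after removal of the extraembryonic part, and each of the 6 groups had 2 samples, which makes 12 in all. The deposited data are 1 peak list per group from ATAC-seq, in which a transposase cuts accessible DNA, so 1 WT High list was set against 1 WT Middle list. On the 19 autosomes the WT High list held 44195 peaks and the WT Middle list 44539, together 88734 of the 249098 autosomal peaks in the 6 lists. A peak counted as shared when it overlapped a peak of the other list by at least 1 bp, and otherwise as High-only or Middle-only. The sort gates describe tagRFP and not a cell type, and a peak list measures neither FoxA2 protein nor RNA. In these bulk samples, fewer cells of a type and less opening per cell cannot be told apart.

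FoxA2 is a forkhead transcription factor that can bind its sites in compacted chromatin, which is why it is called a pioneer factor. At gastrulation it is made in the node and notochord, in the anterior mesendoderm, in the definitive endoderm that forms the gut, and in the visceral endoderm, the older layer on the outside of the embryo. Visceral endoderm takes up and secretes nutrients and shares many genes with the later liver, such as those for fibrinogen, apolipoproteins and alpha-fetoprotein. Active promoters and enhancers are as a rule open in the cells that use them.

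Promoters of single genes are examples of one-sided regions, and 6 are shown here because their peaks stood in 1 of the 2 lists. Fgb encodes the fibrinogen beta chain, Apom apolipoprotein M, Amn the membrane partner of the uptake receptor cubilin, and Afp alpha-fetoprotein, and their promoters had a WT Middle peak and no WT High peak. Krt18 encodes a keratin of simple epithelia and Noto a transcription factor of the node and notochord, and their promoters had a WT High peak and no WT Middle peak. The Noto promoter peak had the lowest score of the WT High list, and the Afp promoter peak was weak too, as given below. The windows run from 250 bases before to 50 bases after the start of transcription, in RefSeq's GRCm38.p6 (mm10), each on the gene's own strand. Capitals mark words that were searched for on both strands. TGTTTNC is a loose form of the forkhead word TGTTTAC. The word AGATAA is read by GATA factors, and TATAAA is the TATA box. GTTAAT is a further word counted in the promoters.
Fgb (chr3:83049814-83050113, minus strand): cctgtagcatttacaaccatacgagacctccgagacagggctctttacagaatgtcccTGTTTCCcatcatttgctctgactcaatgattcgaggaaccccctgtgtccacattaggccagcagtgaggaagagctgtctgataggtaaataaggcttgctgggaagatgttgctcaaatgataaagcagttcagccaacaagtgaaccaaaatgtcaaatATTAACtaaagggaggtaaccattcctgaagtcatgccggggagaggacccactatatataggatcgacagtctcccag
Apom (chr17:35131752-35132051, minus strand): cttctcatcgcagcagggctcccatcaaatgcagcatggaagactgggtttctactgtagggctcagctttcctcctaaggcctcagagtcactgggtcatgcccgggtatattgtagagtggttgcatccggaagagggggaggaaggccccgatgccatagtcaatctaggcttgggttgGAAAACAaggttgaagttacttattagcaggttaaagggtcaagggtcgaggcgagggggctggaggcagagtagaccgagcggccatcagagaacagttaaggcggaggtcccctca
Amn (chr12:111270846-111271145, plus strand): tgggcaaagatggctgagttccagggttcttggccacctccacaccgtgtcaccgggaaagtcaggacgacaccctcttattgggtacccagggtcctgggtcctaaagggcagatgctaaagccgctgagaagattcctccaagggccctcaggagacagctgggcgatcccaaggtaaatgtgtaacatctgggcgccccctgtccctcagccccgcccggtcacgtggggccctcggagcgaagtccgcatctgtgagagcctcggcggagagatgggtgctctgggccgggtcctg
Afp (chr5:90490464-90490763, plus strand): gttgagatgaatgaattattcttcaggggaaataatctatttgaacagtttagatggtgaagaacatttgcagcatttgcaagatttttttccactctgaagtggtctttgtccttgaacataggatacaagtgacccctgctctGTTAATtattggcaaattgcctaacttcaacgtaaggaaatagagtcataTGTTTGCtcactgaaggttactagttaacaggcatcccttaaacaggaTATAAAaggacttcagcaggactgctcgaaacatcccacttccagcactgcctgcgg
Krt18 (chr15:102027966-102028265, plus strand): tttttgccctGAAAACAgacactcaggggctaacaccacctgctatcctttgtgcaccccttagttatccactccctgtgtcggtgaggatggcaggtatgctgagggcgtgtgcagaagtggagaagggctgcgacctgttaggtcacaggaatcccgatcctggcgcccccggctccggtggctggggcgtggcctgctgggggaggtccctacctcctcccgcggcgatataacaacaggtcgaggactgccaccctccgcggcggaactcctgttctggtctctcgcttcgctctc
Noto (chr6:85423636-85423935, plus strand): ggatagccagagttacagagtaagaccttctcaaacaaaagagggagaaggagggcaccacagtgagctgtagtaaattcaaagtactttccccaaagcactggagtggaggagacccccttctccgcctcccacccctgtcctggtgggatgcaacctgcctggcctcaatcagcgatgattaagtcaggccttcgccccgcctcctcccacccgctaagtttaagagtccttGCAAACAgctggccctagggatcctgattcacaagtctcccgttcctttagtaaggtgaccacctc
The Fgb window held a loose forkhead word that begins 192 bases before the start, and the word GTTAAT on the other strand, beginning 29 bases before it. The Afp window held a loose forkhead word 55 bases, the word GTTAAT 105 bases and a TATA word 7 bases before its listed start. The Apom, Krt18 and Noto windows each held 1 loose forkhead word, on the strand opposite to the gene, and the Amn window held none of the words. A match is a string of letters and not a shown binding site.

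Of the whole lists, 18404 of 44195 WT High peaks had no WT Middle peak, 41.6% (95% Clopper-Pearson interval 41.2 to 42.1%), and 18517 of 44539 WT Middle peaks had no WT High peak, 41.6% (41.1 to 42.0%). Among the 20000 peaks with the highest scores, each looked up in the whole other list, 3563 WT High peaks (17.8%, 17.3 to 18.4%) and 4554 WT Middle peaks (22.8%, 22.2 to 23.4%) had no partner. The score of a peak, read as the −log10 of the authors' p-value or of their q-value, was used only to rank peaks within a list. The intervals cover counting error only, because each group is 1 pooled list with no spread between samples, and no p-value was computed. The cutoff fell among ties, at a score of 7.04 in WT High and 8.45 in WT Middle. High-only peaks made up 42.7% of the 1488 tied WT High peaks kept and 38.6% of the 1087 left out, and Middle-only peaks 35.1% of the 1581 tied WT Middle peaks kept and 35.0% of the 400 left out.

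At the strong end of the lists, one-sided peaks were rarer in WT High than in WT Middle. In the decile with the highest scores, 1.97% of the WT High peaks were High-only and 10.5% of the WT Middle peaks were Middle-only. In the fifth decile the shares were 41.2% High-only and 38.1% Middle-only, and in the weakest decile 75.7% High-only and 70.1% Middle-only. Of the 2000 strongest peaks of each list, 20 were High-only and 140 were Middle-only. Read totals were not used here, and the depth is unknown. The step from the lowest score to the next, which becomes finer as the background of a list grows, was 0.861 in WT High and 0.744 in WT Middle. The shortest peak was 205 bp in WT High and 181 bp in WT Middle. The part of depth in the shares was not tested.

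**Figure D1:**
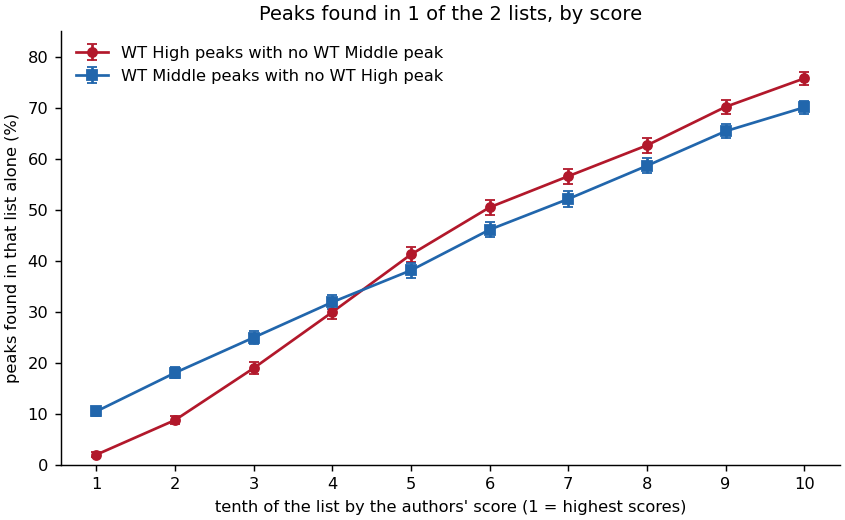
Share of peaks found in 1 list alone (y axis, %) in deciles of each list ordered by the authors' score (x axis, 1 holds the highest scores), for WT High (red circles) and WT Middle (blue squares), with 95% Clopper-Pearson bars for counting error. The strongest decile had 1.97% High-only and 10.5% Middle-only peaks, and the curves cross between the fourth and the fifth decile.

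High-only and Middle-only regions differed in where they lay. Of the High-only peaks among the top 20000, 9.85% overlapped a promoter window, against 3.95% of the Middle-only peaks. Shared peaks were more often at promoters, 37.4% of those in the top 20000 of WT High and 35.7% of those in the top 20000 of WT Middle. Away from promoters, 45.9% of High-only and 47.3% of Middle-only peaks lay inside a gene body, and 44.2% of High-only and 48.7% of Middle-only peaks lay outside any gene. High-only peaks had a median width of 424 bp and a median distance of 17268 bp to the nearest WT Middle peak. Middle-only peaks had a median width of 392 bp and a median distance of 11515 bp to the nearest WT High peak. Peak numbers within the names ran along the genome with gaps, where peaks had been removed before deposit. Between the flanking peaks of the other list, such a gap lay around 23.0% of High-only and 25.4% of Middle-only regions. For shared regions the shares were 8.40% in WT High and 10.9% in WT Middle. The gap can lie anywhere between the flanking peaks, so a peak removed at the region itself is not shown. The spans between flanking peaks were not matched in length between one-sided and shared regions, so these shares are not compared further.

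The lists of the dHx embryos come from other animals sorted with the same gates, and the share of one-sided WT peaks found in them differed by side. Of the 3563 High-only peaks, 53.1% (51.4 to 54.7%) overlapped a dHx High peak and 39.3% (37.7 to 40.9%) a dHx Middle peak. Of the 4554 Middle-only peaks, 22.8% (21.6 to 24.0%) overlapped a dHx High peak and 53.5% (52.0 to 54.9%) a dHx Middle peak. Counted by region, 940 High-only peaks were in dHx High and not in dHx Middle, and 449 were in dHx Middle and not in dHx High. For Middle-only peaks these counts were 317 in dHx High alone of the pair and 1715 in dHx Middle alone. Shared peaks showed a weaker lean to dHx Middle, with 1063 in dHx High alone and 1292 in dHx Middle alone among the strong WT High peaks, and 739 in dHx High alone and 1619 in dHx Middle alone among the strong WT Middle peaks. The dHx cells carry the helix deletion, so these shares hold the effect of the genotype as well as of the gate.

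**Figure D2:**
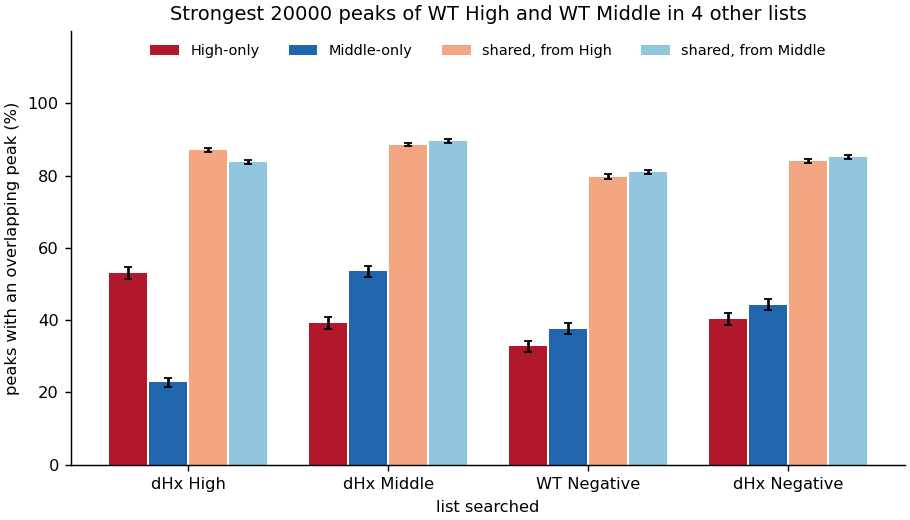
Share of the strongest 20000 WT High and WT Middle peaks (y axis, %) that overlap a peak of each of the 4 other lists (x axis), for High-only, Middle-only and shared peaks, with 95% Clopper-Pearson bars for counting error. High-only peaks were found more often in dHx High (53.1%) than in dHx Middle (39.3%), and Middle-only peaks the other way round (22.8% in dHx High and 53.5% in dHx Middle).

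Peaks of cells without tagRFP signal overlapped some of the one-sided regions too. WT Negative peaks overlapped 32.8% of High-only and 37.7% of Middle-only peaks, while they overlapped 79.8% of the shared peaks in the top 20000 of WT High and 81.1% of those in the top 20000 of WT Middle. The dHx Negative peaks overlapped 40.4% of High-only and 44.3% of Middle-only peaks. The share in WT Negative was higher among strong peaks, one-sided or shared. Of the 110 High-only peaks in ranks 1 to 5000, 41.8% were in WT Negative, against 31.9% of the 2911 in ranks 10001 to 20000. Among ranks 1 to 5000, 62.1% of the 556 Middle-only peaks were in WT Negative, and among ranks 10001 to 20000, 32.6% of the 3058 were. Of the shared WT High peaks, WT Negative held 90.7% in ranks 1 to 5000 and 71.5% in ranks 10001 to 20000. In none of the other 4 lists were 721 of the High-only peaks (20.2%) and 930 of the Middle-only peaks (20.4%).

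Genes were compared through the peaks assigned to them, each peak going to the protein-coding gene whose body lay nearest, up to 100 kb away. Over all genes, 40.1% of the assigned WT High peaks were High-only and 40.8% of the assigned WT Middle peaks were Middle-only. More High-only than Middle-only peaks stood at 5391 of the 16338 genes with a peak (33%), and more Middle-only than High-only peaks at 4951 (30.3%). Such a gene is said to lean to High or to lean to Middle. Of the 14 gene lists, epiblast and neuroectoderm had the highest High-only share and visceral endoderm the highest Middle-only share.

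**Figure D3:**
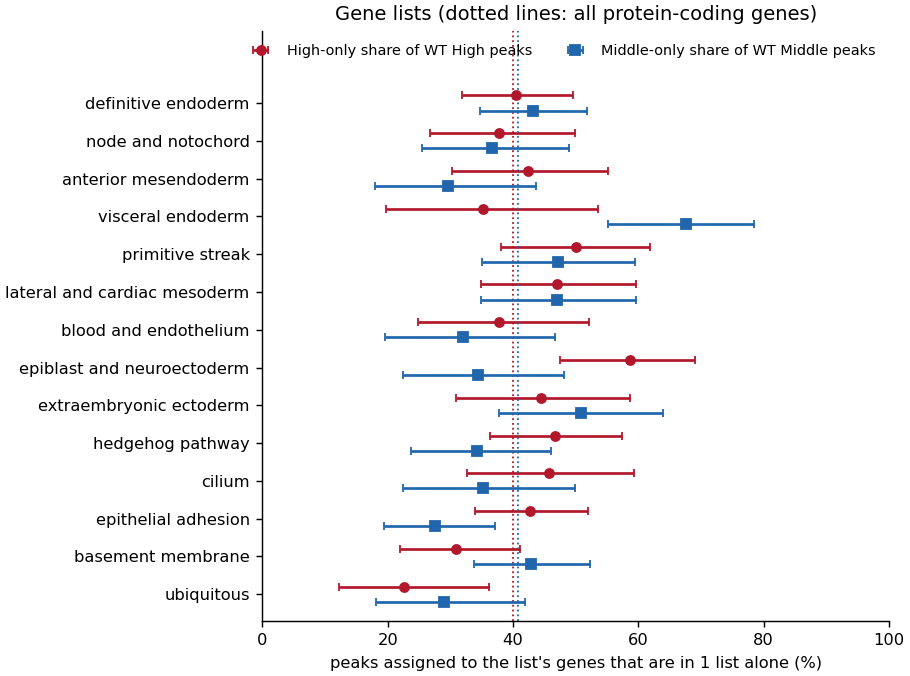
High-only share of the WT High peaks (red circles) and Middle-only share of the WT Middle peaks (blue squares) assigned to the genes of 14 lists (x axis, %), with 95% Clopper-Pearson bars for counting error and dotted lines at the shares over all genes (40.1% High-only, 40.8% Middle-only). The visceral endoderm list had 35.3% High-only and 67.6% Middle-only peaks, the epiblast and neuroectoderm list 58.6% High-only and 34.5% Middle-only.

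At the visceral endoderm genes, 12 of 34 WT High peaks were High-only (35.3%), against 46 of 68 WT Middle peaks that were Middle-only (67.6%, 55.2 to 78.5%). Of the 22 genes, 3 had more High-only and 18 more Middle-only peaks, and 1 had neither in excess. Apob, the apolipoprotein of lipid-carrying particles, had 3 High-only of 4 WT High peaks and 7 Middle-only of 8 WT Middle peaks. Hnf4a, a nuclear receptor that drives visceral endoderm and liver genes, had 1 High-only of 2 WT High peaks and 4 Middle-only of 5 WT Middle peaks. Dab2, an adaptor for endocytosis, had 1 High-only of 5 WT High peaks and 4 Middle-only of 8 WT Middle peaks. Lrp2, the uptake receptor megalin, had 0 High-only of 2 WT High peaks and 3 Middle-only of 5 WT Middle peaks. Transferrin (Trf), Rbp4 and Ttr, which encode carriers of iron, retinol and thyroid hormone, were the exceptions, each with 1 High-only and 0 Middle-only peaks.

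The genes of fibrinogen, uptake and lipid transport showed this at single regions. The Fgb promoter peak, chr3:83049751-83050106, had a score of 17.2 in WT Middle and 12.3 in dHx Middle and was in no other list. Fga, the alpha chain, had a Middle-only peak at chr3:83020495-83020928, 5.24 kb outside the gene, with a score of 13.7 in WT Middle and 7.52 in dHx Middle. The Amn promoter peak, chr12:111270655-111271193, scored 12.6 in WT Middle and 5.33 in dHx Middle, and the Apom promoter peak, chr17:35131765-35132028, scored 7.47 in WT Middle and 6.40 in dHx Middle. Both were absent from the other 4 lists, as was the promoter peak of Cubn, the cubilin gene, at 4.73 in WT Middle and 13.6 in dHx Middle. The Afp promoter peak, chr5:90490366-90490646, was weak, with a score of 3.10 in WT Middle, and was in no other list. A peak upstream of Afp, at chr5:90488362-90488653, was shared, at 3.05 in WT High and 20.8 in WT Middle. Scores of different lists rest on different backgrounds and are given side by side without a comparison.

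Hnf4a held its Middle-only peaks inside the gene. The strongest, chr2:163540436-163541203, had a score of 32.5 in WT Middle, 4.83 in dHx High and 11.1 in dHx Middle. The other 3 scored 7.47, 18.4 and 7.47 in WT Middle and recurred in dHx Middle and in no other list. Around Hnf4a the map of peaks held 2 WT High, 5 WT Middle, 1 dHx High, 7 dHx Middle and 1 dHx Negative peaks, and no WT Negative peak. Over the whole visceral endoderm list, 6 of the 46 Middle-only peaks (13.0%) were found in dHx High and 23 (50.0%) in dHx Middle. Over all genes those shares of Middle-only peaks were 16.5% in dHx High and 31.6% in dHx Middle. In the Negative lists, 6 of the 46 (13.0%) were found in WT Negative and 5 (10.9%) in dHx Negative, against 25.8% in WT Negative and 34.9% in dHx Negative over all genes. With the top 20000 peaks alone, 3 of 12 WT High peaks were High-only and 19 of 32 WT Middle peaks were Middle-only at these genes (25.0% High-only and 59.4% Middle-only), where all genes had 16.7% High-only and 22% Middle-only.

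At the Foxa2 gene itself both lists were rich in peaks, with 16 in WT High and 19 in WT Middle, and 4 were High-only and 7 Middle-only. The peak over the start of the gene, chr2:148045570-148047200, was in all 6 lists, with scores of 23.6 in WT High and 24.6 in WT Middle. All 4 Foxa2 High-only peaks were weak, with scores of 2.19 to 4.95. Of the 7 Middle-only peaks, 5 were among the top 20000, the strongest at chr2:148065819-148066220, 19.1 kb upstream, with a score of 35.3 in WT Middle, 3.70 in dHx High and 26.2 in dHx Middle. Another, 14.6 kb upstream at chr2:148061464-148061710, scored 14.9 in WT Middle and 8.67 in dHx Middle, and one 61.9 kb downstream of the start, chr2:147984726-147985490, scored 14.9 in WT Middle, 6.02 in dHx High and 7.52 in dHx Middle. None of these 3 was in a Negative list. Of all 7, 6 recurred in dHx Middle and 2 in dHx High.

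**Figure D4:**
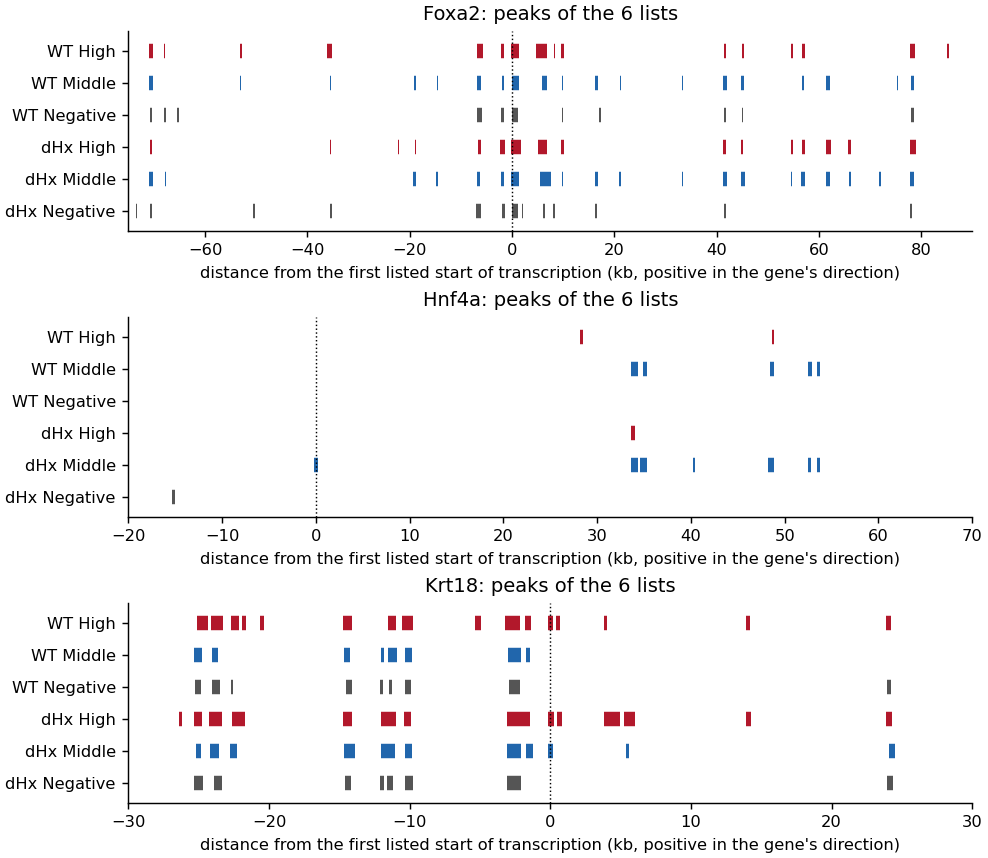
Peaks of the 6 lists around Foxa2, Hnf4a and Krt18, drawn to scale as bars against the distance in kb from the first listed start of transcription, positive in the direction of the gene, with WT High above WT Middle. The Foxa2 peak 19.1 kb upstream is in WT Middle and not in WT High, 4 Hnf4a peaks inside the gene are in WT Middle alone of the WT lists, and the Krt18 promoter peak is in WT High and not in WT Middle.

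The definitive endoderm list as a whole stayed near the values of all genes, with 51 High-only of 126 WT High peaks (40.5%) and 60 Middle-only of 139 WT Middle peaks (43.2%), and 9 genes that leaned to High against 8 to Middle. Its one-sided regions were found more rarely in Negative cells than those of all genes, 6 of 51 High-only (11.8%) and 7 of 60 Middle-only peaks (11.7%) in WT Negative, against 23.7% of High-only and 25.8% of Middle-only peaks over all genes. Of the 51 High-only peaks, 26 (51.0%) were in dHx High and 19 (37.3%) in dHx Middle, against 33.3% in dHx High and 23.9% in dHx Middle over all genes. Of the 60 Middle-only peaks, 13 (21.7%) were in dHx High and 31 (51.7%) in dHx Middle, against 16.5% in dHx High and 31.6% in dHx Middle over all genes. Sox17, a factor that specifies endoderm, had 4 High-only and 4 Middle-only peaks, of 9 peaks in each list. One was the Middle-only peak at chr1:4538288-4538657, 40.9 kb outside the gene, with 46.7 in WT Middle and 9.86 in dHx Middle. Another was the High-only peak at chr1:4454668-4454972, 36.0 kb outside the gene, with 9.29 in WT High and 12.7 in dHx High. Emb, a cell adhesion glycoprotein, had 3 High-only of 10 WT High peaks and 10 Middle-only of 18 WT Middle peaks. Prdm1, a transcriptional repressor, had 1 High-only of 6 WT High peaks and 7 Middle-only of 12 WT Middle peaks. Kit, a receptor tyrosine kinase, had 4 High-only of 6 WT High peaks and 0 Middle-only of 2 WT Middle peaks. Foxa3, a paralog of Foxa2, had 1 High-only of 1 WT High peak and 1 Middle-only of 2 WT Middle peaks, in a 1-Mb bin dense in peaks. The High-only peak lay inside the gene, at chr7:19020457-19020991, with scores of 16.8 in WT High, 3.70 in dHx High and 11.1 in dHx Middle.

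Node and notochord genes did not lean to one side, with 28 High-only of 74 WT High peaks (37.8%), 26 Middle-only of 71 WT Middle peaks (36.6%), and 8 genes that leaned to High against 7 to Middle (3 against 4 with the top 20000). Shh, the ligand the notochord secretes, had 3 High-only of 6 WT High peaks and 0 Middle-only of 3 WT Middle peaks, each High-only peak at a score of 3.05. Fgf8, a growth factor of the streak and node region, had 4 High-only of 5 WT High peaks and 0 Middle-only of 1 WT Middle peak. Its strongest High-only peak, chr19:45735171-45735487, had a score of 12.9 in WT High and 5.41 in dHx Negative. Noto had 1 High-only of 5 WT High peaks and 0 Middle-only of 4 WT Middle peaks. The Noto promoter peak printed above, chr6:85423688-85424153, had the lowest score of its list, 2.19, and recurred only in dHx Negative, at 2.24. The strongest Noto peak, upstream of the gene at chr6:85415452-85416313, was shared, at 31.0 in WT High and 28.5 in WT Middle, and was in dHx High (11.3) and dHx Middle (24.7) and in neither Negative list. Sox9, a factor of the notochord and of cartilage, had 0 High-only of 6 WT High peaks and 2 Middle-only of 8 WT Middle peaks, and Bicc1, an RNA-binding protein of the node, 2 High-only of 5 and 5 Middle-only of 8.

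Anterior mesendoderm genes had 28 High-only of 66 WT High peaks (42.4%) and 16 Middle-only of 54 WT Middle peaks (29.6%). The intervals, 30.3 to 55.2% High-only and 18.0 to 43.6% Middle-only, held the shares over all genes, 40.1% and 40.8%. Of the anterior mesendoderm genes, 7 leaned to High and 4 to Middle. Among the top 20000 peaks, 7 of 32 were High-only (21.9%, 9.28 to 40.0%) and 5 of 22 Middle-only (22.7%, 7.82 to 45.4%). Over all genes these shares were 16.7% High-only and 22.0% Middle-only, both within the intervals. With these strong peaks 5 genes of the list leaned to High and 3 to Middle, while over all genes 1954 leaned to High and 2573 to Middle. Six3, a homeodomain factor of the anterior head that also stands in the neuroectoderm list, had 7 High-only of 9 WT High peaks and 0 Middle-only of 2 WT Middle peaks. Its strongest High-only peak, chr17:85614533-85614936 inside the gene, had 11.7 in WT High and was in all of the other 4 lists, at 2.24 to 4.16. Gsc, goosecoid, had 4 High-only of 6 WT High peaks and 1 Middle-only of 3 WT Middle peaks. Dkk1, a Wnt inhibitor, had 2 High-only of 7 WT High peaks and 4 Middle-only of 9 WT Middle peaks.

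At the primitive streak genes, 37 of 74 WT High peaks were High-only (50.0%) and 33 of 70 WT Middle peaks were Middle-only (47.1%), and 11 genes leaned to High and 8 to Middle. With the top 20000 peaks this lean turned, to 2 genes for High and 6 for Middle, with 12.0% High-only and 32.0% Middle-only peaks. The lean over all genes turned too, to 1954 genes for High and 2573 for Middle. The intervals of the streak genes there, 2.55 to 31.2% High-only and 14.9 to 53.5% Middle-only, held the shares over all genes, 16.7% and 22.0%. Lef1, a factor that answers Wnt signals, had 5 High-only of 8 WT High peaks and 1 Middle-only of 4 WT Middle peaks. Axin2, a target and inhibitor of Wnt signalling, went the other way, with 1 High-only of 5 WT High peaks and 9 Middle-only of 13 WT Middle peaks. Fgf4, a growth factor of the streak, had 1 WT High peak and 0 WT Middle peaks. It lay on the promoter at chr7:144860989-144861301, with 7.04 in WT High, 2.46 in WT Negative, 3.70 in dHx High and 3.74 in dHx Negative.

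Epiblast and neuroectoderm genes had 51 High-only of 87 WT High peaks (58.6%, 47.6 to 69.1%) and 20 Middle-only of 58 WT Middle peaks (34.5%, 22.5 to 48.1%). Of these genes, 12 leaned to High, 5 to Middle and 4 to neither. Besides Six3, the largest excesses were at Sox11, a factor of neural progenitors, with 5 High-only of 9 WT High peaks and 0 Middle-only of 4 WT Middle peaks, and at Pax2, with 6 High-only of 7 WT High peaks and 1 Middle-only of 2 WT Middle peaks. Nanog, a pluripotency factor, had 4 High-only of 6 WT High peaks and 0 Middle-only of 2 WT Middle peaks. Its strongest, 3.71 kb upstream at chr6:122703574-122703977, had 5.97 in WT High, 4.16 in WT Negative, 7.26 in dHx High and 3.74 in dHx Negative. Lhx2, a factor of the forebrain and eye, had 4 High-only of 6 WT High peaks and 0 Middle-only of 2 WT Middle peaks. Dnmt3b, a DNA methyltransferase high in epiblast, had 3 High-only of 4 WT High peaks and 2 Middle-only of 3 WT Middle peaks. Pou5f1, Utf1, Fgf5 and Hesx1, also genes of the epiblast or anterior neural plate, had 0 High-only peaks, with 2 Middle-only peaks at Utf1 and 1 at each of the others. Of the 51 High-only peaks, dHx High held 23 (45.1%), dHx Middle 13 (25.5%) and WT Negative 17 (33.3%). Over all genes these lists held 33.3%, 23.9% and 23.7% of the High-only peaks, so the dHx Middle share was near the background. These peaks were mostly weak: among the top 20000, 7 of 23 WT High peaks were High-only (30.4%) and 4 of 15 WT Middle peaks were Middle-only (26.7%), where all genes had 16.7% High-only and 22% Middle-only.

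Epithelial adhesion genes had 53 High-only of 124 WT High peaks (42.7%, 33.9 to 51.9%) and 29 Middle-only of 105 WT Middle peaks (27.6%, 19.3 to 37.2%), and 11 genes leaned to High and 4 to Middle. With the top 20000 peaks this lean turned, since 3 genes leaned to High and 6 to Middle. It turned over all genes too, where 1954 then leaned to High and 2573 to Middle. The strong peaks of the list were 14.8% High-only and 21.2% Middle-only, near the 16.7% and 22.0% over all genes. In the whole lists the High-only share was near the 40.1% over all genes, and the Middle-only share was below the 40.8%. The keratin pair Krt8 and Krt18, which assemble into the filaments of simple epithelia and lie side by side, leaned to High. Krt8 had 4 High-only of 7 WT High peaks and 0 Middle-only of 3 WT Middle peaks, and Krt18 had 6 High-only of 10 WT High peaks and 1 Middle-only of 5 WT Middle peaks. The Krt18 promoter peak, chr15:102028062-102028401, had 5.97 in WT High, 8.55 in dHx High and 5.33 in dHx Middle, and was in neither Negative list. A High-only peak inside Krt18, chr15:102028625-102028885, had 2.19 in WT High and 3.70 in dHx High and was in no other list. The same held for a peak just past the gene, chr15:102032040-102032254, with 3.05 in WT High and 6.02 in dHx High. Cdh1, E-cadherin, had 5 High-only and 5 Middle-only peaks, of 10 in each list. The strongest was High-only, chr8:106610847-106611345 inside the gene, with 18.1 in WT High, 6.02 in dHx High and 5.33 in dHx Middle. Magi1, a scaffold of cell junctions, had 12 High-only of 21 WT High peaks and 6 Middle-only of 15 WT Middle peaks, but 0 High-only and 3 Middle-only among the top 20000. Of the 53 High-only peaks of the list, dHx High held 18 (34.0%) and dHx Middle 14 (26.4%), near the 33.3% and 23.9% over all genes, and WT Negative held 4 (7.55%), against 23.7% over all genes.

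Hedgehog pathway genes had 43 High-only of 92 WT High peaks (46.7%) and 26 Middle-only of 76 WT Middle peaks (34.2%). The intervals, 36.3 to 57.4% High-only and 23.7 to 46.0% Middle-only, held the shares over all genes, 40.1% and 40.8%. Of the hedgehog genes, 9 leaned to High and 4 to Middle. Among the top 20000 peaks, 12 of 43 were High-only (27.9%, 15.3 to 43.7%) and 8 of 30 Middle-only (26.7%, 12.3 to 45.9%). Over all genes these shares were 16.7% High-only and 22.0% Middle-only, both within the intervals. With these strong peaks 6 hedgehog genes leaned to High and 4 to Middle, while over all genes 1954 leaned to High and 2573 to Middle. Among the ligands, Shh leaned to High, as given above, while Ihh had 0 WT High peaks and 1 WT Middle peak, inside the gene at chr1:74949302-74950023, with 22.1 in WT Middle, 7.26 in dHx High and 12.3 in dHx Middle. Disp1, which releases the ligand, had 4 High-only of 7 WT High peaks and 3 Middle-only of 6 WT Middle peaks. Its strongest High-only peak, chr1:183161571-183162389 inside the gene, had 22.2 in WT High and recurred in 3 of the dHx lists, at 14.1 (dHx High), 12.3 (dHx Middle) and 7.23 (dHx Negative). At the receptor gene Ptch1, 3 of 8 WT High peaks were High-only and 2 of 7 WT Middle peaks were Middle-only. Its strongest Middle-only peak, chr13:63521014-63521534, had 27.2 in WT Middle and recurred in dHx Middle (27.7) and both Negative lists (WT 43.3, dHx 153). The co-receptor gene Boc had 5 High-only and 1 Middle-only peaks and the co-receptor gene Cdon 3 High-only and 0 Middle-only peaks, and the mediator Gli2 had 3 High-only of 11 WT High peaks and 0 Middle-only of 8 WT Middle peaks.

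Cilium genes had 27 High-only of 59 WT High peaks (45.8%) and 18 Middle-only of 51 WT Middle peaks (35.3%). Of these genes, 10 leaned to High and 4 to Middle. Among the top 20000 peaks, 9 of 32 WT High peaks were High-only (28.1%, 13.7 to 46.7%). Of the WT Middle peaks there, 2 of 22 were Middle-only (9.09%, 1.12 to 29.2%). With these strong peaks 7 cilium genes leaned to High and 1 to Middle. Both intervals held the share over all genes, 16.7% High-only and 22% Middle-only. Arl13b, a small GTPase of the ciliary membrane, had 2 High-only of 4 WT High peaks and 0 Middle-only of 2 WT Middle peaks. Dnah5, a heavy chain of the outer dynein arm, had 6 High-only of 9 WT High peaks and 2 Middle-only of 5 WT Middle peaks. Dnah11, also an axonemal dynein, had 2 High-only of 8 WT High peaks and 7 Middle-only of 13 WT Middle peaks. Foxj1, the regulator of motile cilia, had 1 High-only and 1 Middle-only peak, of 3 in each list.

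Basement membrane genes had 30 High-only of 97 WT High peaks (30.9%, 21.9 to 41.1%) and 51 Middle-only of 119 WT Middle peaks (42.9%, 33.8 to 52.3%). Both intervals held the share over all genes, 40.1% High-only and 40.8% Middle-only. Counted by genes the list leaned to Middle, since 3 of the 20 genes leaned to High and 12 to Middle. Nid2, nidogen-2, which links laminin to collagen IV, had 2 High-only of 6 WT High peaks and 7 Middle-only of 11 WT Middle peaks. The strongest of the 7, chr14:19790545-19790869 inside Nid2, had 23.3 in WT Middle and recurred in both Negative lists (WT 6.07, dHx 8.19). Col4a1, which encodes a chain of collagen IV, had 1 High-only of 3 WT High peaks and 4 Middle-only of 5 WT Middle peaks, and its neighbour Col4a2, the gene of another chain, had 2 High-only of 4 and 5 Middle-only of 8. Lama1, the laminin alpha chain of early embryos, had 2 High-only and 2 Middle-only peaks, of 5 in each list. Itgb1, an integrin that binds laminin, leaned to High, with 4 High-only of 8 WT High peaks and 1 Middle-only of 5 WT Middle peaks. Of the 51 Middle-only peaks of this list, 8 (15.7%) were in dHx High and 20 (39.2%) in dHx Middle. Over all genes those shares of Middle-only peaks were 16.5% in dHx High and 31.6% in dHx Middle, so the dHx High share was near the background.

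The remaining lists hold genes of other cell types and genes used by all cells. The shares over all genes were 40.1% High-only and 40.8% Middle-only. Intervals of the lateral and cardiac mesoderm, the blood and endothelium and the extraembryonic ectoderm lists held these shares on both sides. Lateral and cardiac mesoderm genes had the same shares on both sides, 32 High-only of 68 WT High peaks and 32 Middle-only of 68 WT Middle peaks (47.1% each). Mef2c, a factor of heart and muscle, had 6 High-only of 7 WT High peaks and 0 Middle-only of 1 WT Middle peak. Blood and endothelium genes had 20 High-only of 53 (37.7%) and 16 Middle-only of 50 peaks (32.0%), and extraembryonic ectoderm genes 24 High-only of 54 (44.4%) and 31 Middle-only of 61 peaks (50.8%). Ets2, a factor of the trophoblast, had 1 High-only of 3 WT High peaks and 8 Middle-only of 10 WT Middle peaks. Gata3, also a trophoblast factor, went the other way, with 5 High-only of 7 WT High peaks and 2 Middle-only of 4 WT Middle peaks. Of the extraembryonic ectoderm genes 7 leaned to High and 6 to Middle, and with the top 20000 peaks 1 leaned to High and 6 to Middle. Over all genes 1954 leaned to High and 2573 to Middle with the top 20000. Ubiquitous genes had the lowest High-only share of the 14 lists, 12 of 53 (22.6%, 12.3 to 36.2%), and a Middle-only share of 18 of 62 (29.0%, 18.2 to 41.9%). Of the ubiquitous genes 4 leaned to High and 10 to Middle, and with the top 20000 peaks 4 leaned to High and 2 to Middle. In the blood list 17 of 19 genes had a peak, among them Runx1, a factor of blood formation, with 15 WT High and 12 WT Middle peaks. The other two, the haemoglobin genes Hbb-bh1 and Hba-x, had 0 peaks in both lists.

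Over all genes and the top 20000 peaks, where the background is 16.7% High-only and 22% Middle-only, the largest excess of High-only peaks was 4, at Myo16, Ttc29, Cacnb2, Asic2, Maml2, Fam135b and Slc23a2. Maml2, a coactivator of Notch signalling, had 4 High-only among 10 strong WT High peaks and 0 Middle-only among 3 strong WT Middle peaks. Cacnb2, a calcium channel subunit, had 4 among 6 and 0 among 2, and Fam135b had 4 among 4 strong WT High peaks and 0 WT Middle peaks. The largest Middle-only excesses, of 9, were at Gm7592, Sp140 and A530032D15Rik. They lie in 1-Mb bins dense in peaks, with more than 5 times the median count, as do Gm7697, Gm38510, 4930467E23Rik, Gm15319 and Gm21119. Several of these genes belong to families of near-identical copies, whose reads cannot be placed with certainty, so their counts are uncertain. Outside dense bins, Usp29, a paternally expressed imprinted gene, had 0 High-only among 5 strong WT High peaks and 7 Middle-only among 11 strong WT Middle peaks. Its strongest Middle-only peak, chr7:6838175-6838522, had 35.3 in WT Middle and 11.1 in dHx Middle and was in no other list.

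The 10 strongest High-only peaks outside dense bins ranked between 240 and 1455 in their list, and the 10 strongest Middle-only peaks between 9 and 335 in theirs. The strongest High-only peak lay inside Sfi1 at chr11:3168080-3169276, with a score of 110, and was in dHx High and dHx Negative. The next, chr11:76662171-76662560, 9.91 kb from Bhlha9, scored 67.2 and was in WT Negative, dHx High and dHx Negative. Of the 10 strongest, 1 was in no other list, the peak inside Dip2c at chr13:9327184-9327825, with 53.4. The strongest Middle-only peak lay inside Flt1 at chr5:147611439-147611626, 188 bp wide, with a score of 924 and rank 9 in its list, and was in both Negative lists. The shortest WT Middle peak was 181 bp wide, and the strongest decile of that list had a median width of 725 bp. Flt1 encodes a receptor for vascular growth factors. The next were chr17:88709651-88710644 inside Gtf2a1l, with 376, and chr2:92093597-92093786, 69.4 kb from Creb3l1, with 344, both also in WT Negative, dHx High and dHx Negative. The peak inside Mphosph8, chr14:56693997-56694184, with 129, was in no other list. All the others of the 10 strongest Middle-only peaks were in both Negative lists. Between its flanking peaks, the WT Middle list skipped peak numbers around 6 of the 10 High-only regions, among them 3 around the first Sfi1 region and 2 around the Bhlha9 region. The WT High list skipped 1 number between the peaks that flank the Flt1 region and none around the other 9 Middle-only regions.

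Promoter windows were more often open on the High side alone than on the Middle side alone. Of 31396 autosomal windows, 9862 were touched by peaks of both lists, 2164 by WT High peaks alone and 1041 by WT Middle peaks alone. High-only windows were 18.0% of the 12026 touched in WT High, and Middle-only windows 9.55% of the 10903 touched in WT Middle. By gene, 6.84% of 25748 genes had a High-only and 3.31% a Middle-only promoter. A window counts as one-sided when no peak of the other list reaches into it, also where a broad peak meets its partner outside the window. High-only windows were found in dHx High in 65.2% of cases, in dHx Middle in 44.1%, in WT Negative in 47.2% and in dHx Negative in 58.9%. For Middle-only windows the shares were 47.6% for dHx High, 47.4% for dHx Middle, 41.6% for WT Negative and 50.7% for dHx Negative. Windows touched by both lists were found in each of these 4 lists in 90.7 to 95.8% of cases. One-sided windows were thus often found in the Negative lists too. The visceral endoderm list again stood on the Middle side, with 0 High-only and 5 Middle-only promoters of 17, those of Afp, Amn, Apom, Cubn and Fgb. High-only were the promoters of Cxcr4, Shisa2 and Trh in the definitive endoderm list, of Calca, Nodal and Noto in the node list, of Dnmt3b, Nanog, Pax2 and Pax6 in the epiblast and neuroectoderm list, and of Ccdc40, Kif3a and Tekt1 in the cilium list. The Trh peak, at the gene of thyrotropin-releasing hormone, had 3.97 in WT High, 2.64 in dHx High and 2.97 in dHx Negative. Middle-only promoters in these lists were those of Foxa3, Cdx2, Utf1 and Ccdc39.

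The words in capitals were counted over all windows as a description. TGTTTAC stood in 2.68% of High-only, 3.94% of Middle-only and 3.71% of all windows, and the loose form TGTTTNC, which includes it, in 16.8% of High-only, 19.6% of Middle-only and 20.6% of all. GTTAAT stood in 4.85% of High-only (3.99 to 5.84%), 9.89% of Middle-only (8.15 to 11.9%) and 7.12% of all windows. AGATAA stood in 6.52% of High-only, 10.9% of Middle-only and 11.2% of all, and TATAAA in 8.32% of High-only, 11.5% of Middle-only and 13.6% of all. All 5 words were less frequent in High-only than in Middle-only windows, with overlapping intervals for both forkhead words, and the windows also differed in base composition, with a median GC content of 59.7% in High-only and 55.3% in Middle-only windows. The part of base composition in the word shares was not tested.

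The one-sided shares varied moderately over the autosomes. Among the top 20000, High-only peaks ranged between 13.2% of the peaks on chromosome 7 and 22.7% on chromosome 18, and Middle-only peaks between 17.6% on chromosome 7 and 26.3% on chromosome 18. On each of the 19 autosomes the Middle-only share was above the High-only share. The richest 1-Mb bin of Middle-only peaks, chr1:85000001-86000000, held 49 and is one of the dense bins. The richest bin of High-only peaks, chr15:100000001-101000000, held 13.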

How the data were processed

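ATAC-seq measured chromatin accessibility in 2 samples of each of 6 groups. The authors deposited 1 peak list per group in mm10. The submitters' processing notes name STAR 2.5.2a and MACS2, with no role for either. Per the peak names in the deposited lists, reads of a group were pooled, filtered and taken as unique, and no value per sample was used here. The authors' score, deposited without a column name, was taken, from its values, for a −log10 p-value or −log10 q-value. Which of them it is, no source used here says. It grows with depth, which is unknown.

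Lines with the same chromosome, start and end were merged and kept their top score, and chromosomes 1 to 19 were used. Peaks were shared at an overlap of 1 bp. Each went to the protein-coding gene whose body was nearest, within 100 kb, and promoter windows and their sequences came from RefSeq tables of GRCm38.p6, the assembly behind mm10. All 276 distinct genes of the 14 lists were found by symbol, 21 of them in more than 1 list, 205 in the promoter table. No genome was used. Python 3.11.15, numpy 2.4.6, pandas 2.3.3 and scipy 1.17.1 computed overlaps and 95% Clopper-Pearson intervals, and the overlap, assignment and gap functions were tested on simulated data. With 1 list per group no test between groups was made.

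Genes were named by rule: Foxa2, from each list up to 3 members with most High-only and 2 with most Middle-only peaks among the top 20000, 10 genes at either end of the difference between those counts, and the 10 strongest one-sided regions of each list. Some genes that the rule or the lists hold are not reported here. Further members of the lists were named after their values were seen. The members of the comparison and the gene lists were chosen with earlier results of these data known.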

Additional observations from a re-analysis of the deposited data

Results flagged for a closer look

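Chromosome X was left out of the comparison. It held 1494 WT High peaks and 4222 WT Middle peaks, and the WT Middle count stood out because the other 4 lists held 1059 (dHx High), 1510 (dHx Middle), 1130 (WT Negative) and 2180 (dHx Negative). In the 20 1-Mb bins of chromosome X richest in WT Middle peaks there were 454 WT High and 3061 WT Middle peaks, and elsewhere on the chromosome 1040 WT High and 1161 WT Middle peaks. The bins were picked by their WT Middle count, so an excess of WT Middle peaks inside them was favoured in advance. The same bins held 192 dHx High, 526 dHx Middle, 197 WT Negative and 940 dHx Negative peaks. Of the chromosome X peaks, 524 WT High peaks (35.1%) and 3253 WT Middle peaks (77.0%) had no partner in the other list. The embryos were not sexed, and the part of their sex in these counts was not tested.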

How the results depend on the processing

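No paired analysis was possible because each group is 1 deposited list from pooled samples, which also means that leaving out a replicate could not be tried. The one-sided shares, in the order whole WT High, whole WT Middle, top WT High and top WT Middle, were 56.9%, 57.2%, 34.4% and 37.5% when the overlap had to cover a fraction of 0.5 of both peaks, and 39.4%, 38.7%, 17.2% and 22.0% when a gap of 500 bp still counted as shared. Without dense bins they were 42.5%, 39.7%, 19.7% and 24.4%. An alternative chosen after seeing the data left out one-sided regions where the other list skipped a peak number between its flanking peaks. The shares were then 36.1%, 34.1%, 14.3% and 18.0%, and they could only fall, because one-sided peaks alone were taken out. With chromosomes X and Y, the whole WT Middle share was 44.6% and the top WT High share 17.0%. With a score of at least 5 in both lists, 33.5% of WT High and 42.9% of WT Middle peaks were one-sided. The top 10000 gave 6.52% High-only and 14.96% Middle-only, and the top 30000 gave 28.7% High-only and 30.9% Middle-only. The top 20000 gave 27.7% High-only and 33.7% Middle-only when partners needed a score of at least 5, and 15.8% High-only and 21.7% Middle-only without the tied lowest score, also chosen after seeing the data. The Middle-only share of the top peaks exceeded the High-only share under all of these.

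Genes leaning to High minus genes leaning to Middle changed sign in 8 cases among the gene lists. With the top 20000 the difference was -1 for node and notochord, -4 for primitive streak, -5 for extraembryonic ectoderm, -3 for epithelial adhesion and 2 for ubiquitous genes. Over all genes the lean also turned to Middle with the top 20000. There 5391 genes leaned to High and 4951 to Middle with the whole lists, and 1954 and 2573 with the top 20000. Ubiquitous genes turned the other way. For extraembryonic ectoderm the difference was -3 when each peak counted for every gene within 100 kb and -1 without skipped numbers, and for definitive endoderm -1 with the overlap fraction of 0.5. The visceral endoderm and basement membrane lists leaned to Middle under all 5 alternatives for gene lists. The epiblast and neuroectoderm, cilium, hedgehog pathway and anterior mesendoderm lists leaned to High under all 5. The Middle-only share at visceral endoderm genes was lowest, 50.5%, when each peak counted for every gene within 100 kb. The cause of these changes was not tested. The 4 promoter shares stayed within their intervals with windows widened by 500 bp. Depth is unknown, and its part in these shares was not tested.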
